A study of Mus musculus with 6 samples.

Results

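The collagen genes of C2C12 myotubes were examined in 3 libraries from cultures given 10 ng/ml TWEAK for 12 h and 3 libraries from untreated cultures. The untreated libraries are labelled 12 h as well. The members are all protein-coding genes of the deposited table whose symbol has the form of a collagen chain, such as Col1a1, with no expression value used to choose them. That gives 44 of the 21664 protein-coding genes and of the 49592 genes listed. C2C12 myoblasts are a mouse line; in low serum they stop dividing and fuse into myotubes with many nuclei. All cultures had been grown in 10% FBS and had then spent 3 days in 2% HS (the label's abbreviation), so both groups come from differentiated cultures of a single line. The labels list the cell type as myoblast, while the protocol describes myotubes. TWEAK is a cytokine of the TNF superfamily that signals through the receptor Fn14 to NF-kB and other pathways. The libraries are numbered by trial from 1 to 3 in each group, and the labels do not say whether the trials are separate cultures, so a p-value here reflects only how far these libraries differ from each other.

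Collagens are extracellular matrix proteins in which 3 chains wind into a triple helix. Fibrillar collagens (types I, II, III, V, XI, XXIV and XXVII) assemble into the cross-banded fibrils of connective tissue, and type V sets fibril diameter from within type I fibrils. Type IV forms the network of basement membranes, which in muscle sheathes each fibre. Type VI forms beaded microfibrils next to that sheath, and FACITs (fibril-associated collagens with interrupted triple helices, such as type XII) bind the surface of fibrils. In muscle tissue most of these chains are made by resident fibroblasts, although cultured myogenic cells also transcribe many of them.

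The libraries held between 29951457 and 40887663 reads, recovered from the deposited FPKM (fragments counted for a gene, divided by its length and by the depth of the library). Collagen genes took 0.801% to 0.976% of the reads in TWEAK libraries and 0.914% to 1.08% in untreated libraries. Markers of differentiated muscle stood high, with Acta1 (skeletal actin) at 3337 ± 150.4 FPKM in TWEAK libraries and 4001 ± 257 in untreated libraries (SD, n = 3 each). Among the fibroblast markers, Tcf21 was listed at 0 in every library, and the summed FPKM of the 7 markers ran from 20.5 to 51.3 in TWEAK libraries and from 24.5 to 47.4 in untreated libraries. That sum was highest in trial 3 in both groups, through Dcn (decorin), which had 15.9, 19.7 and 40.7 FPKM in TWEAK trials 1, 2 and 3, against 19.2, 25.8 and 36.7 in untreated trials 1, 2 and 3. Of the leukocyte markers, Cd68 averaged 1.30 ± 0.157 FPKM in TWEAK libraries and 1.24 ± 0.0338 in untreated libraries (SD, n = 3 each) and did not pass (limma adjusted p = 0.839), while Ptprc and Csf1r were near 0 and Adgre1 was at 0 in every library. The 4 endothelial markers were below the minimum, with a summed level of at most 0.0796 FPKM in TWEAK libraries and 0.104 in untreated libraries.

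With TWEAK, transcripts of 2 collagen genes rose and those of 5 fell, out of 25 with a mean of at least 0.5 FPKM, the minimum for testing. Col5a3 (an alternative chain of type V) and Col19a1 (a FACIT) rose. Col5a1 and Col1a1 (chains of types V and I), Col12a1 (a FACIT), Col8a1 (a short-chain network collagen) and Col11a1 (type XI) fell. The falls were of 1.38 to 2.13-fold and the rises of 1.67 and 2.48-fold in mean FPKM. A change counts as passed where its p-value from limma on log2(FPKM + 1), adjusted over all 12770 genes tested, is under 0.05. Of all genes tested 15.1% passed in either direction, 8.98% higher and 6.10% lower. The median log2 fold change was -0.17 over the 25 collagens and 0.01 over all genes tested, with 18 collagens below 0 and 7 above.

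**Figure D1:**
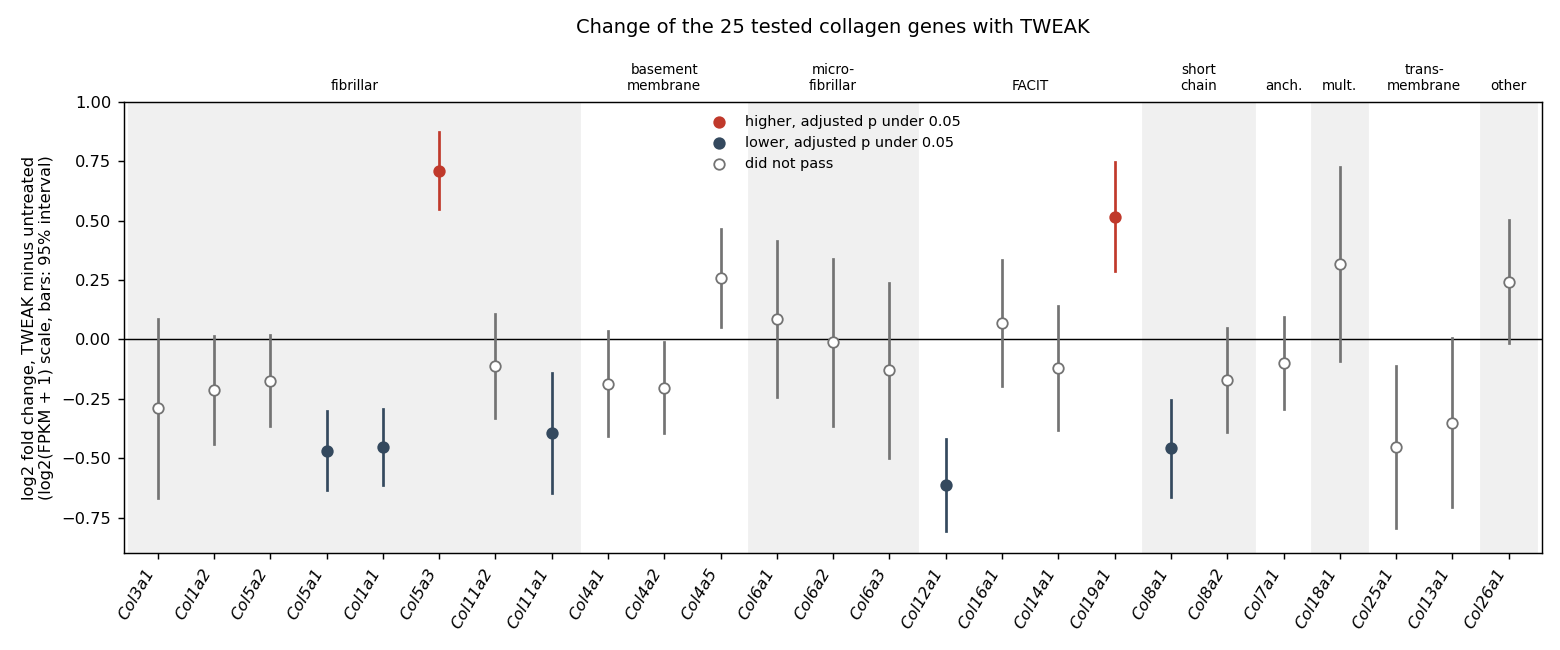
Each tested collagen gene's log2 fold change in FPKM with 1 added (TWEAK minus untreated), with its 95% interval from limma as a vertical bar and the classes in shaded blocks. Filled points mark the 7 genes that passed, with Col5a3 at 0.71 as the highest and Col12a1 at -0.61 as the lowest.

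The 2 groups did not overlap for 9 collagens, 4 higher and 5 lower with TWEAK. Of all genes tested, 20.0% did not overlap on the higher side and 15.9% on the lower side. Within trials, 13 collagens were lower with TWEAK in all 3 and 6 were higher in all 3. Of all genes tested, 27.5% were lower in all 3 and 31.0% higher in all 3. When trial was added to the limma fit as a block, 14 collagens passed, 4 as higher and 10 as lower. In that fit 27.9% of all genes tested passed, 15.4% as higher and 12.5% as lower. Of the 25 tested genes, 4 (Col19a1, Col11a1, Col25a1 and Col13a1) reached the minimum although 1 group's mean was under 0.5 FPKM. In RNA from whole cultures, fewer cells of a type and less RNA per cell cannot be told apart.

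By class, 1 of 8 tested fibrillar genes rose, 3 fell and 4 did not pass. None of 3 basement membrane genes and none of 3 microfibrillar genes passed in either direction, and 1 of 4 FACIT genes rose while 1 fell. The 7 tested genes of the remaining classes gave 1 fall (Col8a1) and no rise. Over all genes tested 15.1% passed, and no class was tested against that share. With trial as a block, 1 basement membrane gene passed as higher and 2 as lower, while no microfibrillar gene passed. In that fit 1 fibrillar gene passed as higher and 4 as lower, and 1 FACIT gene passed in each direction. Of the remaining classes, Col18a1 then passed as higher and Col8a1, Col25a1 and Col13a1 as lower. The share of all genes tested that passed in that fit was 27.9%. Levels spanned 3 orders of magnitude, and the fibrillar chains Col3a1, Col1a2 and Col5a2 were the most abundant in both groups. They supplied 35.8%, 17.0% and 13.5% of the family's summed FPKM in TWEAK libraries and 37.0%, 16.9% and 13.2% in untreated libraries.

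**Figure D2:**
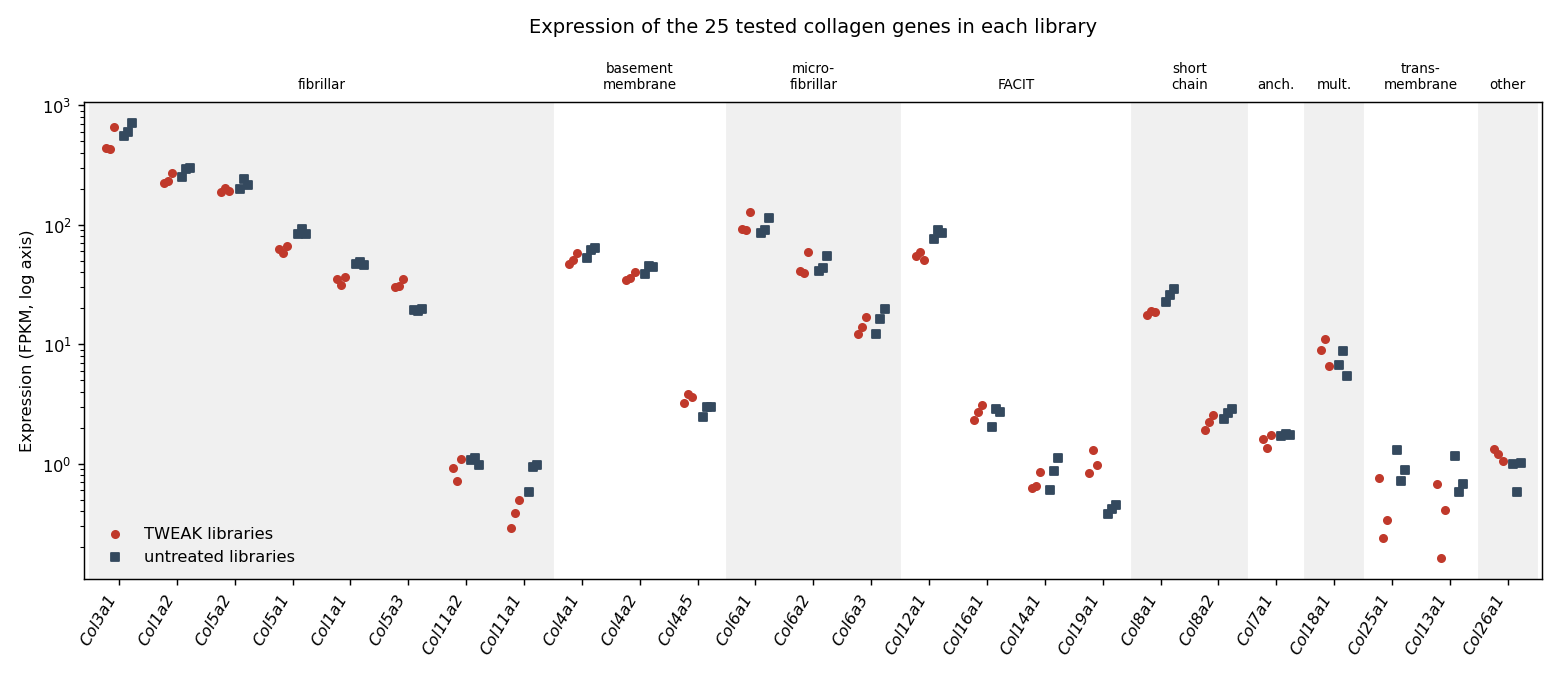
FPKM (log axis) of the 25 tested collagen genes in each library, TWEAK libraries as circles and untreated libraries as squares, ordered by class. Col3a1 lies at 431 FPKM or above in every library, while Col11a1, Col14a1, Col25a1 and Col13a1 average less than 1 FPKM in both groups.

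Among the major fibrillar chains, Col1a1, which encodes the chain present in 2 copies in each type I molecule, had 35.0, 31.6 and 36.5 FPKM in TWEAK libraries 1, 2 and 3, against 46.9, 48.9 and 46.1 in untreated libraries 1, 2 and 3. Every TWEAK library was below every untreated library. Col1a1 fell 1.38-fold in mean FPKM (log2 fold change -0.45 ± 0.07 SE, limma adjusted p = 0.00428), and the call held when any single library was left out. The gene lies on chromosome 11 from 94827050 to 94843868 in the files' build, GRCm39. Its partner in the molecule, Col1a2, had 222, 233 and 273 FPKM in TWEAK libraries, against 253, 291 and 298 in untreated libraries. The groups overlapped, each trial's TWEAK library was the lower of its pair, and the difference did not pass (log2 fold change -0.21, limma adjusted p = 0.192).

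Col3a1, the only chain of type III collagen, was the most abundant member. It had 439.6, 431 and 663 FPKM in TWEAK libraries 1, 2 and 3, against 551, 592 and 704 in untreated libraries 1, 2 and 3. The third trial was the highest of both groups, so the groups overlapped although TWEAK was lower within each trial. The log2 fold change of -0.29 did not pass (limma adjusted p = 0.282), but it did with trial as a block (limma adjusted p = 0.0357) and when the third TWEAK library was left out (limma adjusted p = 0.0211). The 5 tested fibroblast markers were also highest in trial 3 in both groups, with Dcn at 40.7 FPKM in that TWEAK library and 36.7 in that untreated library. Of the markers not tested, Thy1 did not exceed 0.0497 FPKM in any library and Tcf21 was at 0. The part of these markers in this result was not tested.

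Of the 3 chains of type V collagen, Col5a3 rose, Col5a1 fell and Col5a2 did not pass. Col5a3 had 30.2, 30.9 and 35.1 FPKM in TWEAK libraries 1, 2 and 3, against 19.2, 18.8 and 19.5 in untreated libraries 1, 2 and 3. The lowest TWEAK library stood well above the highest untreated library, and Col5a3 rose 1.67-fold (log2 fold change 0.71 ± 0.07 SE, limma adjusted p = 0.00042). Col5a1, the chain found in most type V molecules, had 62.5, 58.5 and 66.6 FPKM in TWEAK libraries, against 84.1, 92.4 and 83.7 in untreated libraries. No library overlapped, and Col5a1 fell 1.39-fold (log2 fold change -0.47 ± 0.07 SE, limma adjusted p = 0.0044). Col5a2, the usual partner of Col5a1, had 187, 202 and 192 FPKM in TWEAK libraries, against 201, 242 and 214 in untreated libraries. These ranges overlapped at their edges and the difference did not pass (log2 fold change -0.17, limma adjusted p = 0.203). The calls of Col5a3 and Col5a1 held when any single library was left out.

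The ratio of Col5a3 to Col5a1 in FPKM was 0.484, 0.528 and 0.527 in TWEAK libraries and 0.228, 0.204 and 0.234 in untreated libraries, a ratio chosen after these values were seen. The gap was wider than the spread in either group, and the exact two-sided permutation p of 0.10 is the smallest that 3 libraries against 3 can give. That p was fixed in advance, because neither chain overlapped between groups and they moved in opposite directions. It adds nothing to the results of the single chains. Col5a3 is on chromosome 9 from 20681346 to 20726363 and Col5a1 on chromosome 2 from 27776437 to 27929526 (GRCm39).

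The 250 bases before the RefSeq start of these oppositely moving type V genes are shown because they differ in base composition and in the motifs they hold. The coordinates are of RefSeq's own build, GRCm38.p6, and are not comparable with those above. Capitals mark CCAAT (the CCAAT box) and GGGCGG (the GC box), searched on both strands, so that a reverse match reads ATTGG or CCGCCC. The first window is chr9:20815068-20815317 on the minus strand and the other is chr2:27886175-27886424 on the plus strand.
Col5a3: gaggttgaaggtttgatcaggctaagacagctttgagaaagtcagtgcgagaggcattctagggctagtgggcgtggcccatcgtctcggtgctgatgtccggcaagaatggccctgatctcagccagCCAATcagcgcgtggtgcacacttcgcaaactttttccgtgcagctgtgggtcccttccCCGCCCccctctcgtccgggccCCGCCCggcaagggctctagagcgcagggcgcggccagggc
Col5a1: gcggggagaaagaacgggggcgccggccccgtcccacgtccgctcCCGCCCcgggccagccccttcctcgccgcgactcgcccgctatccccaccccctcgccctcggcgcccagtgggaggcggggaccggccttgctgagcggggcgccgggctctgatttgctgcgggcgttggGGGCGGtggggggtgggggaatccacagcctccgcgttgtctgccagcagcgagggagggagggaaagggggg

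The Col5a3 window held 1 CCAAT box, at -122 from the start, and GC boxes at -63 and -41, and 62.8% of its bases were G or C. The Col5a1 window held GC boxes at -205 and -73 and no CCAAT box, with 76.4% G or C. Of the 25 tested collagens 20 had a window, and 14 of those 20 held a GC box in a window, against 35.4% of the 27025 genes in the RefSeq table. Over all 35 members with a window it was 21. The RefSeq genes were not limited to expressed ones, so they and the tested collagens are not like sets. The CCAAT box was found for 10 of the 20, against 37.5% of all genes, and TATAAA for 3 of the 20, against 14.3% of all genes. A match describes letters in the window only.

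Type XI collagen is a minor fibrillar type. Its chain Col11a1 had 0.287, 0.390 and 0.495 FPKM in TWEAK libraries, against 0.583, 0.933 and 0.978 in untreated libraries. No library overlapped, and Col11a1 fell 2.13-fold in mean FPKM on 284 reads in all TWEAK libraries and 687 in all untreated libraries (log2 fold change -0.39, limma adjusted p = 0.0461). That call was lost, with limma adjusted p of 0.107, 0.122, 0.146 and 0.132, without TWEAK library 1, TWEAK library 2, untreated library 2 and untreated library 3. Col11a1 reached the minimum for testing through the untreated libraries, averaging 0.831 FPKM there and 0.391 in TWEAK libraries. The authors' deposited table gives Col11a1 -1.09 on a log2 scale without an added 1 (adjusted p of 0.00082). Its values may not rest on these libraries alone. Col11a2, its partner chain, averaged 0.910 ± 0.193 FPKM in TWEAK libraries and 1.06 ± 0.0671 in untreated libraries (SD, n = 3 each) and did not pass (limma adjusted p = 0.483).

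Col27a1, the chain of type XXVII, averaged 0.607 FPKM in TWEAK libraries and 0.122 in untreated libraries, which is below the minimum over all 6, so it was not tested. It is singled out here for its values, which were known when it was chosen. It had 0.449, 0.639 and 0.732 FPKM in TWEAK libraries, against 0.103, 0.0999 and 0.162 in untreated libraries. Every TWEAK library was above every untreated library. The pooled reads were 439 with TWEAK and 101 untreated, a depth-corrected ratio of 4.87 with a 95% interval of 3.92 to 6.11 that covers counting error only. With no minimum on FPKM, the log2 fold change was 0.51 (limma adjusted p = 0.0244), and the authors' deposited table gives 2.30 with an adjusted p of 1.36e-13, on a log2 scale without an added 1. The mean normalized count of Col6a6 in the authors' deposited table is above 0 although all 6 libraries are at 0, so its values may not rest on these libraries alone. The other fibrillar members below the minimum, Col24a1 and Col2a1, averaged 0.0836 and 0.0292 FPKM in TWEAK libraries and 0.109 and 0.0394 in untreated libraries.

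The window before Col27a1 is shown because, of the windows of Col5a3, Col19a1 and Col27a1, it alone holds a match to the NF-kB consensus, in capitals together with a GC box. It lies at chr4:63215162-63215411 on the plus strand of GRCm38.p6 (RefSeq), beside that of Col19a1, the FACIT that rose, at chr1:24587438-24587687 on the minus strand.
Col27a1: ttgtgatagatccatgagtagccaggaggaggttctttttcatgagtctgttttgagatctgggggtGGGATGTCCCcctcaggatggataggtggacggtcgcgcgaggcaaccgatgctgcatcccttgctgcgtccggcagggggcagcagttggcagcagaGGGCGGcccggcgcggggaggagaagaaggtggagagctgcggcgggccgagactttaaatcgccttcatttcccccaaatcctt
Col19a1: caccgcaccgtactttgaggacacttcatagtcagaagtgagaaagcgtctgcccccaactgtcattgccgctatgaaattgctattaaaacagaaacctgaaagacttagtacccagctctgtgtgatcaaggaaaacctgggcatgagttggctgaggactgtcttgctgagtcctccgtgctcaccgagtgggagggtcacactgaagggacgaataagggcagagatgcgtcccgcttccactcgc

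The NF-kB consensus match before Col27a1 starts at -183 and the GC box at -85. The Col19a1 window held none of the 4 motifs searched, with 52.0% G or C. The NF-kB consensus was found for 2 of the 20 tested members with a window and for 6 of all 35 members with a window, against 8.23% of all genes. Besides Col27a1 these were Col4a2 and Col6a2, which did not pass, and Col6a4, Col9a1 and Col9a2, which did not exceed 0.0451 FPKM in any library. No match says only that these letters are not in this window.

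No basement membrane chain passed in the fit without trial. Col4a1 had 47.3, 51.0 and 57.8 FPKM in TWEAK libraries 1, 2 and 3, against 52.3, 62.1 and 63.7 in untreated libraries 1, 2 and 3. Col4a2, with which it forms the common type IV molecule, had 34.6, 35.9 and 40.5 FPKM in TWEAK libraries, against 38.7, 44.9 and 44.7 in untreated libraries. Both overlapped between groups and were lower with TWEAK within each trial. The log2 fold changes were -0.19 for Col4a1 (limma adjusted p = 0.239, and 0.0447 with trial as a block) and -0.20 for Col4a2 (limma adjusted p = 0.141, and 0.0305 with trial as a block). The genes start head to head on chromosome 8 and overlap by 22 bases in the deposited positions.

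Col4a5, a chain of the kidney filter's basement membrane among others, had 3.20, 3.81 and 3.64 FPKM in TWEAK libraries, against 2.47, 2.97 and 2.96 in untreated libraries. The groups did not overlap, with TWEAK higher, but the difference did not pass (log2 fold change 0.26, limma adjusted p = 0.0894), and it did with trial as a block (limma adjusted p = 0.0201). The authors' deposited table gives an adjusted p of 0.196 for Col4a1 and 0.156 for Col4a2. For Col4a5 it lists 0.34 on its log2 scale (adjusted p of 0.00964). Col4a6, its neighbour at a distance of 1308 bases on chromosome X, averaged 0.0165 FPKM in TWEAK libraries and 0.0181 in untreated libraries. Col4a3 and Col4a4 did not exceed 0.0106 FPKM in any library.

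The microfibrillar type VI chains followed the trials more than the treatment. Col6a1 had 91.6, 91.0 and 126.7 FPKM in TWEAK libraries 1, 2 and 3, against 85.1, 90.6 and 114 in untreated libraries 1, 2 and 3. Col6a2 had 40.9, 39.7 and 59.5 FPKM in TWEAK libraries, against 41.4, 43.7 and 54.8 in untreated libraries. Col6a3 had 12.1, 14.1 and 17.1 FPKM in TWEAK libraries, against 12.1, 16.3 and 19.5 in untreated libraries. The third trial was the highest for all 3 chains in both groups, and the groups overlapped.

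The log2 fold changes of the type VI chains were 0.09, -0.01 and -0.13 for Col6a1, Col6a2 and Col6a3, with limma adjusted p of 0.734, 0.971 and 0.642. Their 95% intervals ran from -0.24 to 0.41, from -0.36 to 0.34 and from -0.50 to 0.24, so changes within those bounds cannot be told from none. The fibroblast marker Dcn, at 40.7 FPKM in the third TWEAK library and 36.7 in the third untreated library, was also highest in trial 3, and its part in these values was not tested. Col6a4 and Col6a5 did not exceed 0.0451 FPKM in any library, and Col6a6 was listed at 0 throughout.

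**Figure D3:**
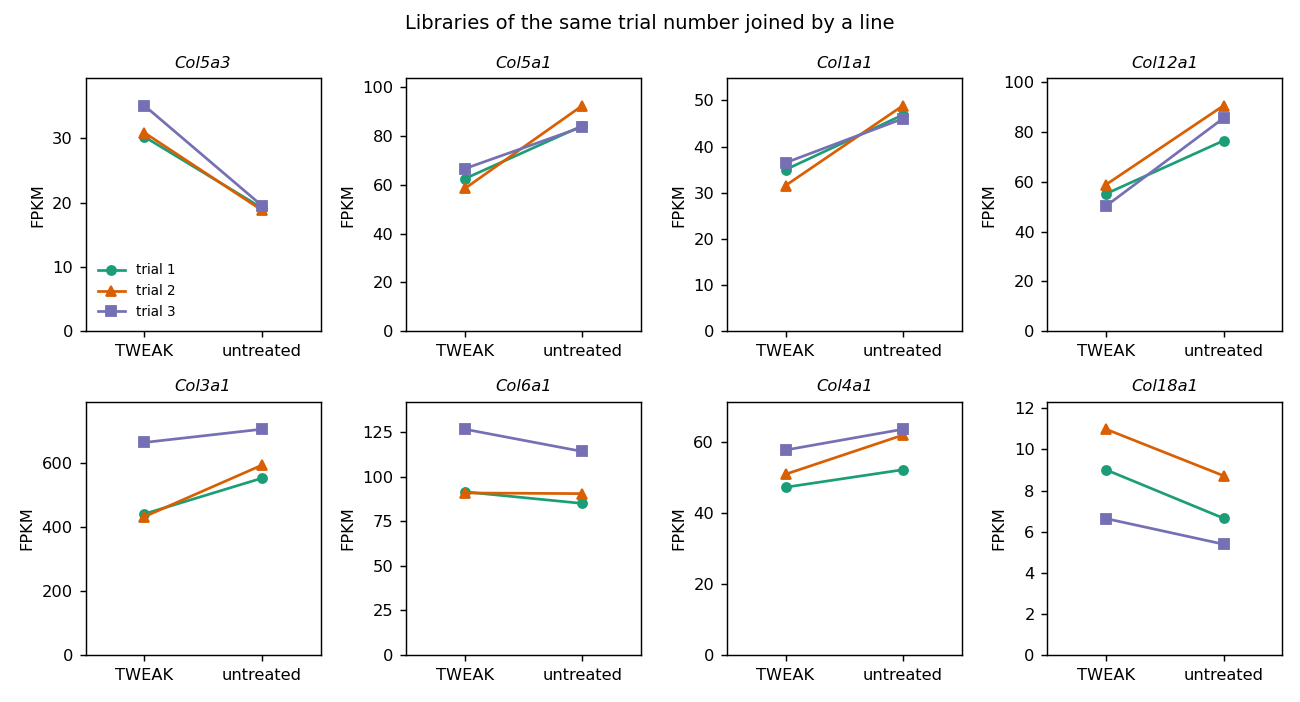
FPKM of 8 collagen genes with the TWEAK library of each trial joined to the untreated library of the same trial number. Col5a3, Col5a1, Col1a1 and Col12a1 separate by treatment, Col3a1 and Col6a1 have trial 3 highest in both groups (663 and 704 FPKM, and 126.7 and 114 FPKM), and Col18a1 has trial 3 lowest in both.

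Among the FACITs, Col12a1 showed the strongest fall by adjusted p of all members. It had 55.2, 58.9 and 50.3 FPKM in TWEAK libraries 1, 2 and 3, against 76.5, 90.6 and 85.6 in untreated libraries 1, 2 and 3. The groups were clearly apart, and Col12a1 fell 1.54-fold (log2 fold change -0.61 ± 0.09 SE, limma adjusted p = 0.00246), also when any single library was left out. Type XII collagen coats fibrils of tendon, ligament and muscle, and in humans mutations in the gene cause a myopathy with joint laxity. The gene lies on chromosome 9 from 79506273 to 79626002 (GRCm39).

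Col19a1, a FACIT of basement membrane zones that is transcribed in developing muscle, had 0.840, 1.30 and 0.968 FPKM in TWEAK libraries, against 0.383, 0.419 and 0.449 in untreated libraries. No library overlapped and Col19a1 rose 2.48-fold in mean FPKM (log2 fold change 0.52 ± 0.10 SE, limma adjusted p = 0.0107), on 542 reads with TWEAK and 243 untreated. The call held without any single library. However, Col19a1 reached the minimum for testing through the TWEAK libraries, averaging 1.04 FPKM there and 0.417 in untreated libraries. The authors' deposited table lists Col19a1 with 1.31 on its log2 scale (adjusted p of 3.62e-09). Col19a1 covers chromosome 1 from 24300971 to 24626553 (GRCm39) and ends 9205 bases from Col9a1, which had 0 reads with TWEAK and 1 untreated.

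The other tested FACITs did not pass. Col16a1 averaged 2.70 ± 0.388 FPKM in TWEAK libraries and 2.53 ± 0.455 in untreated libraries (limma adjusted p = 0.742, SD, n = 3 each). Col14a1, which binds decorin-coated fibrils, averaged 0.708 ± 0.121 FPKM in TWEAK libraries and 0.866 ± 0.252 in untreated libraries (limma adjusted p = 0.525, SD, n = 3 each). Both overlapped between the groups. Col9a1, Col9a2, Col9a3, Col20a1 and Col22a1 were below the minimum, with Col9a3 the highest single value at 0.142 FPKM.

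Of the short-chain collagens, which form hexagonal networks, Col8a1 had 17.6, 18.9 and 18.6 FPKM in TWEAK libraries, against 22.4, 25.8 and 28.9 in untreated libraries. The untreated libraries were all above the TWEAK libraries and more spread, and Col8a1 fell 1.40-fold (log2 fold change -0.46 ± 0.09 SE, limma adjusted p = 0.0105), also without any single library. With no minimum on FPKM its limma adjusted p was 0.0570. Col8a2, which can join it in a molecule, had 1.92, 2.23 and 2.54 FPKM in TWEAK libraries, against 2.37, 2.66 and 2.86 in untreated libraries. The groups overlapped and the difference did not pass (log2 fold change -0.17, limma adjusted p = 0.274).

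Col18a1, a multiplexin of basement membranes whose end fragment is endostatin, had 9.01, 11.0 and 6.63 FPKM in TWEAK libraries 1, 2 and 3, against 6.65, 8.72 and 5.39 in untreated libraries 1, 2 and 3. The trials differed more than the groups, with trial 3 lowest and trial 2 highest in both, and TWEAK was higher within each trial. The difference did not pass without the trial (log2 fold change 0.32, limma adjusted p = 0.278) and did with trial as a block (limma adjusted p = 0.00342). Slc19a1, with a mean of 5.29 FPKM over the 6 libraries, overlaps Col18a1 in the deposited positions, and the use of strand in counting is not given in the sources used here.

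Both tested transmembrane collagens were lower with TWEAK within each trial. Col25a1, needed for motor innervation of muscle in mice, had 0.761, 0.240 and 0.336 FPKM in TWEAK libraries 1, 2 and 3, against 1.29, 0.722 and 0.891 in untreated libraries 1, 2 and 3. Col13a1, a collagen of the neuromuscular junction, had 0.676, 0.164 and 0.414 FPKM in TWEAK libraries, against 1.16, 0.577 and 0.679 in untreated libraries. Trial 1 was highest in both groups for both genes, so the groups overlapped. The limma adjusted p was 0.0776 for Col25a1 and 0.169 for Col13a1, and 0.00238 and 0.0139 with trial as a block. The pooled reads were 278 with TWEAK and 688 untreated for Col25a1, and 122 with TWEAK and 268 untreated for Col13a1. Both reached the minimum for testing through the untreated libraries, as Col25a1 and Col13a1 averaged 0.445 and 0.418 FPKM in TWEAK libraries.

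Col26a1 had 1.34, 1.20 and 1.05 FPKM in TWEAK libraries, against 1.00, 0.580 and 1.01 in untreated libraries. The groups did not overlap, TWEAK being higher, and the difference did not pass (log2 fold change 0.24, limma adjusted p = 0.187). Col7a1, the chain of the anchoring fibrils of skin, averaged 1.56 ± 0.188 FPKM in TWEAK libraries and 1.74 ± 0.0332 in untreated libraries and did not pass (limma adjusted p = 0.477, SD, n = 3 each). The members of these classes below the minimum were Col10a1, Col15a1, Col17a1, Col23a1 and Col28a1, with means of 0.325, 0.0246, 0.0862, 0.163 and 0.0300 FPKM in TWEAK libraries and 0.383, 0.0381, 0.0790, 0.176 and 0.0303 in untreated libraries.

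Summed over each class, the fibrillar chains gave 978, 988 and 1268 FPKM in TWEAK libraries 1, 2 and 3, against 1157, 1288 and 1367 in untreated libraries 1, 2 and 3. TWEAK was the lower within each trial and the groups overlapped. The FACIT sum was 59.1, 63.8 and 55.3 FPKM in TWEAK libraries, against 79.8, 94.9 and 89.99 in untreated libraries, without overlap, and was mostly Col12a1. The basement membrane sum was 85.2, 90.7 and 102 FPKM in TWEAK libraries, against 93.5, 109.98 and 111 in untreated libraries, with overlap. The microfibrillar sum was 145, 145 and 203 FPKM in TWEAK libraries, against 139, 151 and 189 in untreated libraries, with a higher mean under TWEAK (164 and 159). That log2 difference of 0.04 became -0.14 without TWEAK library 3 and -0.047 without untreated library 1. As shares of the summed collagen FPKM, the microfibrillar chains made 11.1%, 10.9% and 12.2% in TWEAK libraries, against 9.20%, 8.94% and 10.5% in untreated libraries. The microfibrillar share was thus higher in every TWEAK library, and no test was run on sums or shares. A share also depends on the total, and the summed FPKM of all members averaged 1428 in TWEAK libraries and 1663 in untreated libraries, with overlap. The higher share is therefore not in itself a gain of the microfibrillar chains, whose own sum overlapped between groups.

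**Figure D4:**
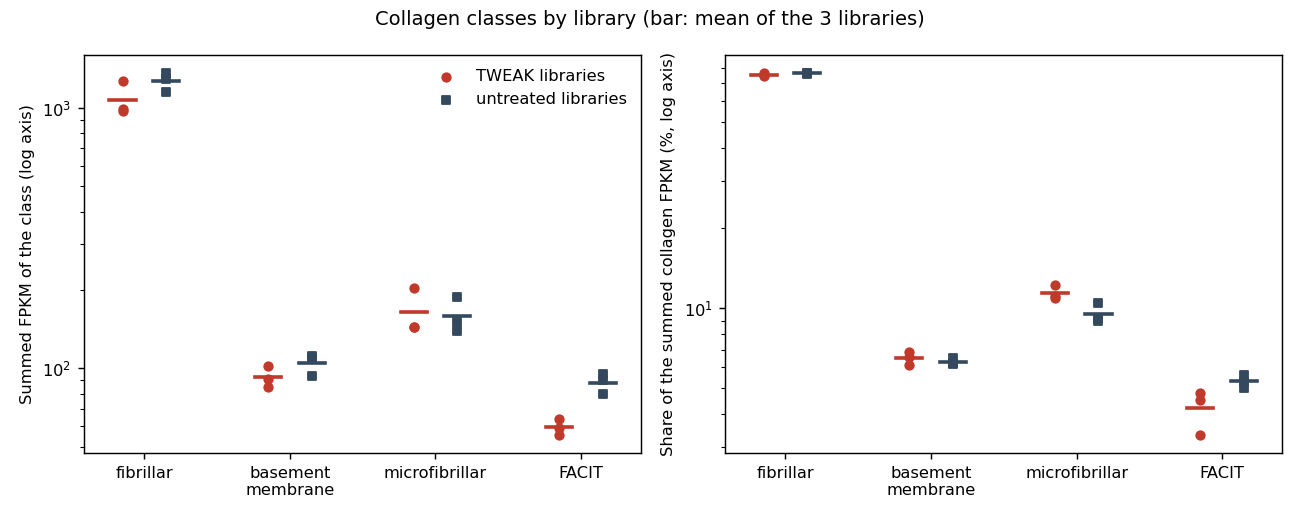
Summed FPKM of 4 collagen classes (left) and their share of the summed collagen FPKM in percent (right), both on log axes, with a point per library and a bar at the mean of 3. The FACIT sum (59.4 and 88.2 FPKM on average in TWEAK and untreated libraries) and the FACIT and microfibrillar shares do not overlap between groups.

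Chains that share a molecule were set against each other within libraries. Col1a1 to Col1a2 was 0.142 ± 0.0132 in TWEAK libraries and 0.169 ± 0.0154 in untreated libraries (SD, n = 3 each, exact two-sided permutation p = 0.20). Col4a1 to Col4a2 was 1.41 ± 0.0335 in TWEAK libraries and 1.39 ± 0.0380 in untreated libraries (SD, n = 3 each, exact two-sided permutation p = 0.60). Both pairs overlapped between the groups, although within each of the 3 trials the type I ratio was lower and the type IV ratio higher with TWEAK. These are ratios of FPKM, not of protein chains. Col5a1 to Col5a2 was 0.324 ± 0.0300 in TWEAK libraries and 0.397 ± 0.0190 in untreated libraries (SD, n = 3 each, exact two-sided permutation p = 0.10). Col6a1 to Col6a2 was 2.22 ± 0.0820 in TWEAK libraries and 2.07 ± 0.0141 in untreated libraries (SD, n = 3 each, exact two-sided permutation p = 0.10). For these last 2 pairs the groups did not overlap and p is the smallest the design allows, and adjusted over the 4 ratios by the Benjamini-Hochberg method the permutation p is 0.20. Each of the 4 ratios kept its direction in all 3 trials, for which the exact paired permutation p is 0.25, the smallest that 3 pairs can give.

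Of 33 tested genes that make and process collagen, of 37 listed, 2 rose, 4 fell and 27 did not pass, with a median log2 fold change of 0.04 (0.01 over all genes tested). The share that passed is near the 15.1% of all genes tested. P4ha1, the catalytic chain of the main prolyl 4-hydroxylase, had 61.2, 57.5 and 65.6 FPKM in TWEAK libraries, against 72.8, 79.5 and 74.9 in untreated libraries, and fell (limma adjusted p = 0.0237). Lox, which crosslinks collagen outside the cell, had 91.0, 91.9 and 94.0 FPKM in TWEAK libraries, against 106, 119 and 131 in untreated libraries, and fell (limma adjusted p = 0.0207). In both, every TWEAK library was below every untreated library. The other falls were of Plod2, the lysyl hydroxylase of telopeptides (limma adjusted p = 0.0455), and Sec23a, part of the coat that exports collagen from the endoplasmic reticulum (limma adjusted p = 0.0456). Plod3, a lysyl hydroxylase that also glycosylates collagen, and Adamts14, a propeptide-cleaving protease, rose (limma adjusted p = 0.0358 and 0.0305). The collagen chaperone Serpinh1 averaged 333 ± 38.1 FPKM in TWEAK libraries and 367 ± 9.89 in untreated libraries (SD, n = 3 each) and did not pass (limma adjusted p = 0.340). With trial as a block, 6 genes of this list passed as higher and 7 as lower, against 15.4% and 12.5% of all genes tested.

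Of 6 tested collagen receptors of 8 listed, 1 rose and 2 fell, against 8.98% and 6.10% of all genes tested. Itga11, the integrin chain for type I collagen, had 0.662, 0.486 and 0.763 FPKM in TWEAK libraries, against 1.53, 1.75 and 2.06 in untreated libraries, and fell 2.79-fold (limma adjusted p = 0.00227). Itga10, a related chain, had 3.89, 2.97 and 3.80 FPKM in TWEAK libraries, against 6.08, 6.58 and 6.45 in untreated libraries, and fell 1.79-fold (limma adjusted p = 0.0020). Neither overlapped between groups. Ddr2, a receptor tyrosine kinase for fibrillar collagen, had 18.7, 19.7 and 14.6 FPKM in TWEAK libraries, against 12.2, 14.0 and 12.1 in untreated libraries, and rose 1.38-fold (limma adjusted p = 0.0292). Itgb1, the partner of both integrin chains, averaged 368 ± 18.4 FPKM in TWEAK libraries and 419 ± 20.4 in untreated libraries (SD, n = 3 each) and did not pass (limma adjusted p = 0.154). The median log2 fold change of these receptors was -0.15, and of the 6, the same 3 passed with trial as a block.

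Of 9 tested proteins that bind collagen fibrils, of 13 listed, 3 fell and none rose (median log2 fold change -0.28), against 6.10% and 8.98% of all genes tested. Ogn (osteoglycin), a small leucine-rich proteoglycan, had 173, 169 and 163 FPKM in TWEAK libraries, against 294, 277 and 309.7 in untreated libraries, and fell 1.74-fold (limma adjusted p = 0.000232). Aspn and Prelp, of the same family, fell 2.44-fold and 1.71-fold (limma adjusted p = 0.00259 and 0.00813). The TWEAK libraries were below the untreated libraries for all 3. Sparc, the highest of the list, averaged 1025 ± 132 FPKM in TWEAK libraries and 1149 ± 77.4 in untreated libraries (SD, n = 3 each) and did not pass (limma adjusted p = 0.364). With trial as a block, 5 fell and none rose, against 12.5% and 15.4% of all genes tested.

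Of 17 genes of the TGF-beta pathway, which induces collagen genes in many cells, 1 rose and 3 fell (median log2 fold change -0.09), against 8.98% and 6.10% of all genes tested. With trial as a block 1 rose and 5 fell, against 15.4% and 12.5% of all genes tested. Tgfb3, a ligand, had 77.0, 61.7 and 82.3 FPKM in TWEAK libraries, against 109.6, 124 and 124 in untreated libraries, and fell 1.62-fold (limma adjusted p = 0.00392). Ltbp1, which stores latent ligand in the matrix, and the receptor gene Tgfbr2 fell (limma adjusted p = 0.00722 and 0.0305). Tgif1, a corepressor, rose (limma adjusted p = 0.0274). Ccn2, a matrix protein induced by the pathway, had 16.6, 25.9 and 30.5 FPKM in TWEAK libraries 1, 2 and 3, against 21.9, 34.2 and 40.9 in untreated libraries 1, 2 and 3. It was lower with TWEAK in each trial and did not pass (limma adjusted p = 0.314), but did with trial as a block (limma adjusted p = 0.000317). The receptor gene Tgfbr1 did not pass either (limma adjusted p = 0.0998), but did with that block (limma adjusted p = 0.0142). Ltbp3 was the highest that did not pass (limma adjusted p = 0.462).

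**Figure D5:**
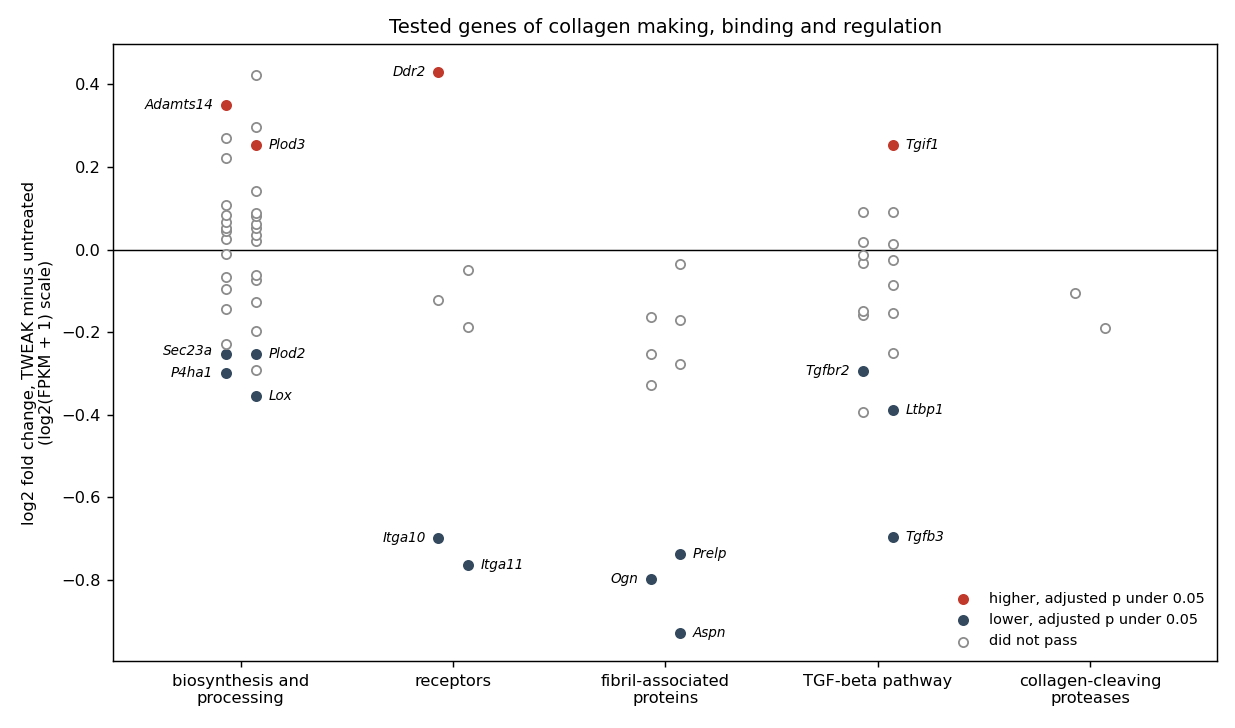
The log2 fold change (TWEAK minus untreated, with 1 added to FPKM) of each tested gene of 5 lists, with genes that passed filled and named and the others open. Of the 2 proteases plotted neither passed, and Mmp9, at 0.636 FPKM on average in TWEAK libraries and 0.0297 in untreated libraries, was below the minimum and is not plotted.

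Of 7 collagen-cleaving proteases only Mmp2 and Mmp14 were tested, and neither passed. Mmp2, a gelatinase, had 161, 169 and 288 FPKM in TWEAK libraries 1, 2 and 3, against 185, 213 and 294 in untreated libraries 1, 2 and 3 (limma adjusted p = 0.625). Trial 3 was highest in both groups, as for the type VI chains. Mmp9, a gelatinase that was below the minimum, had 0.435, 0.679 and 0.793 FPKM in TWEAK libraries, against 0.00952, 0.00958 and 0.0699 in untreated libraries. Every TWEAK library was above every untreated library, on 192 reads with TWEAK and 11 untreated, and no test was run.

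Markers fixed for other cell types were read beside these changes. Scx, a transcription factor of tendon cells that activates Col1a1 in mice, had 51.8, 42.8 and 53.2 FPKM in TWEAK libraries, against 86.0, 87.0 and 79.2 in untreated libraries, and fell 1.71-fold (limma adjusted p = 0.000912). It was the only 1 of 4 tenocyte markers that was tested, and the defining gene Tnmd was listed at 0 in all TWEAK libraries and averaged 0.0210 FPKM in untreated libraries. Sox9, a cartilage factor that activates Col2a1 and Col11a2, fell 1.41-fold (limma adjusted p = 0.0121), while Acan and Matn1 were listed at 0 in all libraries and Runx2 did not pass (limma adjusted p = 0.124). Of 7 myotube markers, Myh3 and Ttn fell (limma adjusted p = 0.00615 and 0.0301) and 5 did not pass. Among those 5, Myog was the higher with TWEAK, at 826 ± 66.7 FPKM against 706 ± 94.6 in untreated libraries (SD, n = 3 each, limma adjusted p = 0.221). The summed FPKM of the 7 was 11937 to 13696 in TWEAK libraries and 13895 to 15118 in untreated libraries. None of the 5 tested fibroblast markers passed. The part of any of these in the collagen values was not tested.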

How the data were processed

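Poly(A) RNA of 3 TWEAK and 3 untreated C2C12 myotube libraries was sequenced. The submitters' processing notes name DESeq2 1.22.2, HTSeq 0.6.1p2, STAR 2.6.0c, Trim Galore 0.5.0 and the build GRCm39. Their settings, the gene annotation and whether strand was used are not given in the sources used. Per the file headers, the authors deposited FPKM per library, and beside it their own comparison as a mean normalized count or signal per gene, a log2 fold change with its error, a score (the test statistic) and p-values. From the values, FPKM had been scaled with a size factor per library. All per-sample columns were matched to a sample (0 were not).

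Genes were tested if their mean was 0.5 FPKM or more, with limma 3.58.1 (R 4.3.3, trend) on log2(FPKM + 1) with group as the only term, two-sided, adjusted by the Benjamini-Hochberg method over all 12770 genes at 0.05. Log2 fold changes are TWEAK minus untreated on that scale, which understates low genes, and folds are ratios of mean FPKM. Reads were recovered from the FPKM: all 126386 values above 0 gave whole numbers within a relative tolerance of 1e-06, with a common factor chosen for 953 genes, none a collagen. Intervals on reads are exact binomial. Tests on single ratios are exact two-sided permutations (scipy 1.17.1). Windows before gene starts came from RefSeq (GRCm38.p6) and covered 35 of 44 members, matched by symbol, Col1a1 and Col12a1 not among them.

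On simulated data with 12770 genes, the fit recovered 87 of 100 genes changed 2-fold and 27 of 100 changed 1.5-fold. The simulation gave each gene the same extra spread and held no trial differences. It also changed far fewer genes than the 1926 that passed in the data. Equal trial numbers were treated as pairs on the strength of the data alone: each library's differences from its group mean correlated, across genes, at 0.473, 0.218 and 0.434 within trials 1, 2 and 3, and at -0.02 or less between trials. Differences from a group mean cancel out within each gene, so positive values within trials bring negative ones between trials on balance. The values between trials are therefore not separate support for the pairing. The alternatives were a pseudocount of 0.1, no minimum, a minimum of 1 FPKM, rescaling to TPM, limma-voom on the recovered reads, trial as a block and leaving out each library. Every tested collagen is named. In each other list up to 4 risen and 4 fallen genes by adjusted p are named, with the highest that did not pass. Ccn2, Tgfbr1, Mmp9 and Myog were named after their values were seen. The collagen classes, the members and the lists were chosen with earlier results of these data known. A gene of these lists is not reported here and was left out of its list.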

Additional observations from a re-analysis of the deposited data

How the results depend on the processing

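The 7 collagen calls kept their direction under all alternatives run. The pseudocount of 0.1, the TPM scale and limma-voom on the recovered reads lost none of them, and limma-voom added Col25a1 (adjusted p = 0.0333). With no minimum on FPKM, 3 collagens fell rather than 5 (Col8a1 and Col11a1 were lost), Col27a1 rose as well, and 801 genes passed in all rather than 1926. Col27a1 also rose on the TPM scale, where the minimum of 0.5 was looser and 14573 genes rather than 12770 were tested. It had been singled out for its values and reached that minimum mostly through the TWEAK libraries (0.607 FPKM on average, against 0.122 in untreated libraries). With a minimum of 1 FPKM, 1 rose rather than 2, since Col19a1 was not tested, and neither was Col11a1. With trial as a replicate block, 14 collagens passed rather than 7 (4 higher and 10 lower) and 3563 genes passed in all, so the background rose as well. Leaving out single libraries gave 844 to 2101 passing genes in all (lowest without TWEAK library 2), 6 to 8 passing collagens and 4 to 6 falls, with 2 rises in each. The same step turned the direction of values that had not passed. Col6a1 ran from -0.070 to 0.21, Col6a2 from -0.20 to 0.11, Col6a3 from -0.31 to 0.019 and Col16a1 from -0.041 to 0.15 on the log2 scale. Of Col6a1, the reversal came without TWEAK library 3. Of Col6a2, it came without TWEAK library 1, TWEAK library 2 or untreated library 3. Of Col6a3 it came without untreated library 3, and of Col16a1 without TWEAK library 3 or untreated library 1. Depth limits the 19 members under the minimum. A 1.5-fold change was recovered for 27 of 100 genes in the simulated comparison. Among the collagens that did not pass, the limma log2 intervals of Col3a1 (-0.67 to 0.09) and Col18a1 (-0.09 to 0.72) reached a 1.5-fold change. Those of Col1a2 (-0.44 to 0.02), Col5a2 (-0.37 to 0.02), Col4a1 (-0.41 to 0.04) and Col4a2 (-0.40 to -0.01) did not. Neither did those of Col6a1, Col6a2 and Col6a3. For low genes the scale understates a change, so a collagen of low level that did not pass may have changed by that much. With 3 libraries a group, no exact permutation test can go below 0.10. The cause of these differences was not tested.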
